A study of Mus musculus with 24 samples.

Results

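Splenic B cells of C57BL/6 mice were compared after 12 h with the TLR4 agonist Kdo2 lipid A (KLA, written Kdo2 in the sample labels) and after 12 h with its solvent, DMSO. The members were the samples labelled with these treatments, 2 KLA samples and 2 DMSO samples, which is 4 of the 24 samples of the series. The cells carried no genetic change according to the labels and were CD43-negative, so that they stood for resting B cells; they had been obtained by magnetic removal of cells bearing CD43 or CD11b. The dose of KLA and the age of the animals are not given in the sources used here. Messenger RNA was measured on 2-colour Agilent arrays on which both dyes held the same condition, so that the Cy5 and the Cy3 channel of an array were the 2 biological replicates of a group and an array effect cannot be told apart from a treatment effect. B cells without treatment and B cells after 1 h with KLA, each on an array of its own, as well as macrophages drawn from the peritoneum after thioglycollate (EPM) and macrophages grown from bone marrow (BMDM), both with the same 12 h treatments, were used for comparison.

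The labels of 1 of the arrays compared are in conflict with the authors' own table of normalized values. The columns of that table for B cells after 1 h with KLA correlated across probes with the scanner files labelled DMSO 12 h (mean r = 0.896, on values centred over the B cell groups), and negatively with their own scanner files (mean r = -0.766). The columns for DMSO 12 h correlated with the scanner files labelled KLA 1 h (mean r = 0.916) and had an r of -0.768 with their own. All results given here follow the labels of the scanner files. Under these labels, 4336 genes were higher and 3885 lower in DMSO 12 h than in untreated B cells, against 475 higher and 428 lower in KLA 1 h than in untreated B cells, and the levels of KLA 12 h and DMSO 12 h correlated across genes with r = 0.997 in either dye. With the labels of the 2 arrays exchanged, 8533 genes differed between KLA 12 h and its control (49.2% of those tested; 24.8% higher and 24.4% lower), and the exchange turned the direction of many values, which are given beside the results they touch for the gene lists and the leading genes.

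TLR4 recognizes the lipid A part of bacterial lipopolysaccharide together with MD-2 (gene Ly96), aided by CD14, and signals through MyD88 and TRIF to the transcription factors NF-kB and IRF3. Mouse B cells carry TLR4 beside the related receptor CD180 (RP105), and are known to answer lipopolysaccharide with growth, division, costimulatory molecules and, over days, differentiation into plasmablasts. Macrophages answer the same ligand with a broad programme of cytokines and interferon-induced genes.

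Between 57.4% and 61.5% of the probes were well above background in each, no spot was saturated, and the replicates of each group correlated with r = 0.998. The median absolute difference between replicates was 0.086 on the log2 scale for KLA and 0.081 for DMSO, against 0.074 between the group means. The 10 transcripts spiked into every RNA, each on 32 spots, differed by 0.066 ± 0.071 (log2, SD over transcripts) between KLA and DMSO, by -0.11 in Cy5 and by 0.24 in Cy3, where all of them were positive (0.09 to 0.32). The Cy3 difference is of the size of many called differences, and its part in them was not tested. Levels are given below as log2 intensity, differences as KLA minus DMSO on that scale with the standard error of the limma fit (n = 2 channels a group), and a gene was called when its limma adjusted p was under 0.05.

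Among the genes that rose with KLA in B cells were Il6, Cxcl10, Ccl5 and Ccl3, the interferon-induced genes Oasl1 and Isg15, Myc and Ccnd2, the transcription factors Batf and Atf3, and the amino acid transporter gene Slc7a3. Most differences were small. Of 17346 genes tested, 488 were higher (2.81%) and 431 lower (2.48%) with KLA, 5.30% in all. The median difference of the called genes was 0.37 for those higher and -0.344 for those lower, and the difference was over 2-fold for 16 genes that were higher (0.0922%) and for 51 that were lower (0.294%). Both KLA channels lay on the same side of both DMSO channels for 43.1% of all genes. With dye as a block, 987 genes were higher and 954 lower. Leaving out the Cy5 channel of DMSO left 321 genes higher and 323 lower, leaving out its Cy3 channel 348 and 281, and leaving out the Cy5 channel of KLA 332 and 263.

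**Figure D1:**
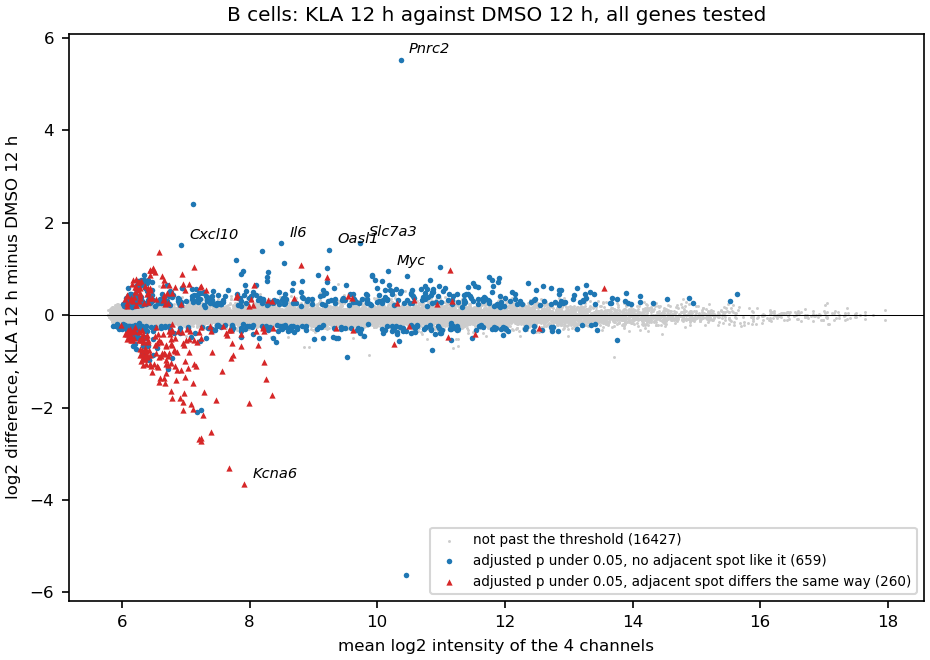
Difference between KLA 12 h and DMSO 12 h in B cells (y axis, log2) against the mean level over the 4 channels (x axis, log2 intensity), 1 point per gene tested (n = 17346). Grey points were not called, and the 2 colours mark called genes without and with a spot next to theirs on the array that differs the same way by over 0.5; most of the decreases over 2-fold are of the second kind.

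The decreases over 2-fold were not scattered evenly over the array. A spot next to that of the gene (of at most 6 neighbours) differed the same way by over 0.5 for 47 of the 51 genes (92.2%), against 802 of all genes tested (4.62%). Both DMSO channels of 49 of the 51 lay above every other B cell channel, including untreated cells. A further probe elsewhere on the array was present for 14, of which 0 showed more than 50% of the difference. For only 1 of the 51 was a further probe well above background in both channels of either group. Probes not detected could show little of a difference. For 33 of the 51 neither KLA channel was well above background. The same neighbour criterion held for 5 of the 16 increases over 2-fold (31.2%), for 86 of all 488 higher genes (17.6%) and for 174 of all 431 lower genes (40.4%). Without such genes 402 higher and 257 lower genes were left, 11 and 4 of them over 2-fold. The part of the spot position in these differences was not tested, and a gene with such a neighbour is marked as such below.

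**Figure D2:**
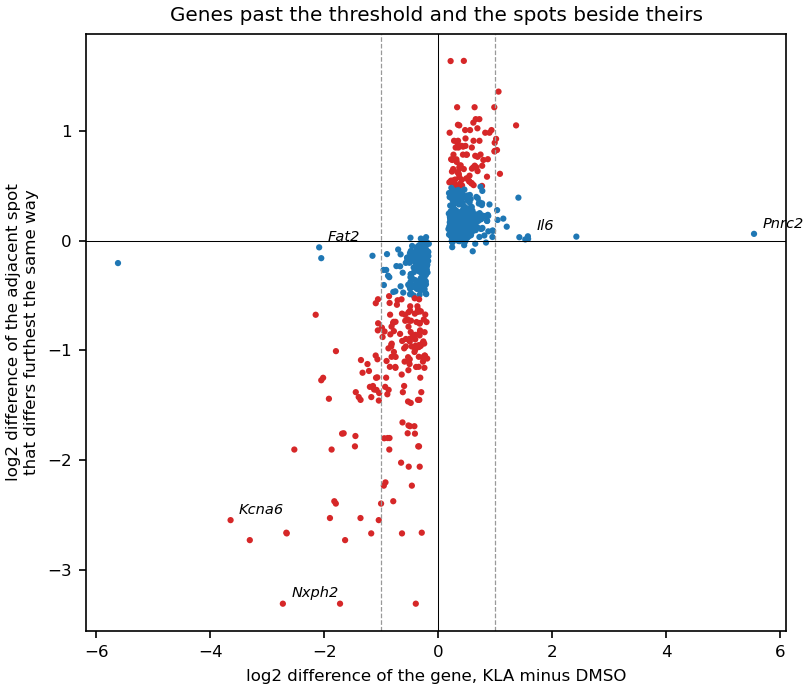
Log2 difference of the neighbouring spot that differs furthest the same way (y axis) against the log2 difference of the gene (x axis), KLA minus DMSO, 1 point per called gene in B cells; red points have a neighbour beyond 0.5 and dashed lines mark 2-fold. Left of the dashed line at -1 most points are red (47 of 51).

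Cytokine and chemokine genes held some of the largest increases. Of 32 genes tested 8 were higher and 1 lower with KLA (25% and 3.12%, against 2.81% and 2.48% of all genes), while the median difference of the group was -0.00275, beside -0.0094 for all genes. For 15 of the 32 no channel of either group was well above background, so that many of these messages were not detected. Il6, a cytokine that acts on B cells and plasma cells, had a level of 7.70 (Cy5) and 7.71 (Cy3) with DMSO and of 9.16 and 9.38 with KLA, against 6.02 and 6.05 without treatment. Both KLA channels lay above both DMSO channels, and Il6 rose by 1.57 ± 0.06, which is 2.97-fold (limma adjusted p = 4.63e-12). Cxcl10, a chemokine that attracts T cells, was not well above background with DMSO (6.11 and 6.23) and reached 7.70 and 7.69 with KLA. It rose by 1.52 ± 0.17, at least 2.87-fold (limma adjusted p = 7.11e-06).

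The 250 bases before the start of Il6 and of Cxcl10 are shown because these genes led the cytokines. Capitals mark matches to a kB motif (GGGA, any 4 bases, CC) and to an interferon response element, ISRE (GAAA, any 2 bases, GAAA), searched on both strands. The sequences are from RefSeq for GRCm38.p6 and lie at chr5:30012864-30013113 on the plus strand for Il6 and at chr5:92348890-92349139 on the minus strand for Cxcl10.
Il6: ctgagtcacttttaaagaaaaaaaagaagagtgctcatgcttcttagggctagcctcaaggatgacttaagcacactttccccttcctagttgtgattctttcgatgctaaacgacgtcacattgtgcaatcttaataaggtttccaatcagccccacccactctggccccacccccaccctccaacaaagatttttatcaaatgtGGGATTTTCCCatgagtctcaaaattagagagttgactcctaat
Cxcl10: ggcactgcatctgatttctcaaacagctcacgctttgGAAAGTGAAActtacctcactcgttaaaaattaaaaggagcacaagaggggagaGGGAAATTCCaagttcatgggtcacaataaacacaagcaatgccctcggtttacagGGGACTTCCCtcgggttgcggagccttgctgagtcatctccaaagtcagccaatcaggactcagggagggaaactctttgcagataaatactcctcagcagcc
That of Il6 held 2 kB matches, which overlap on opposite strands, and that of Cxcl10 held 2 kB matches and 1 ISRE match. Of all 27025 promoters of this length 4684 (17.3%) held a kB match. Of the cytokine genes with an entry, 3 of the 6 called higher (50%) and 10 of the 16 others (62.5%) held one.

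Ccl5, Ccl3, Tnf and Il10 rose over DMSO as well, from DMSO levels that lay below those of untreated cells. Ccl5 was at 7.57 and 7.42 with DMSO, at 8.76 and 9.03 with KLA and at 8.68 and 8.92 without treatment; it rose by 1.40 ± 0.14, 2.64-fold (limma adjusted p = 1.1e-06). Ccl3, a chemokine for monocytes, was at 8.79 and 8.59 with DMSO, at 9.62 and 9.82 with KLA, and at 9.501 and 9.474 without treatment. Its increase was 1.03 ± 0.13, 2.04-fold (limma adjusted p = 2.13e-05). For both genes the KLA channels thus lay above the DMSO channels and near the untreated ones. Tnf was at 7.23 and 7.35 with DMSO and at 7.62 and 7.81 with KLA, an increase of 0.43 ± 0.08 or 1.35-fold (limma adjusted p = 0.00238), and untreated cells had the higher levels of 8.40 and 8.29. Il10, which restrains inflammation, went from 6.59 in both channels to 6.91 and 7.06 (0.40 ± 0.07, limma adjusted p = 0.00163). Ebi3, a subunit of interleukins 27 and 35, rose by 0.63 ± 0.06 (limma adjusted p = 7.53e-07). Lta, for lymphotoxin alpha, rose by 0.35 ± 0.05 (limma adjusted p = 0.000266), and Csf2 was called lower (-0.28 ± 0.05, limma adjusted p = 0.00238) though not well above background in either group. With the labels exchanged the list had 3 higher and 11 lower genes, Tnf differed by -0.82, Ccl5 by -0.0103, Il10 by -0.000132 and Lta by -0.56, and Ccl3 was no longer called (0.0538, limma adjusted p = 0.764), nor was Csf2 (-0.0595).

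**Figure D3:**
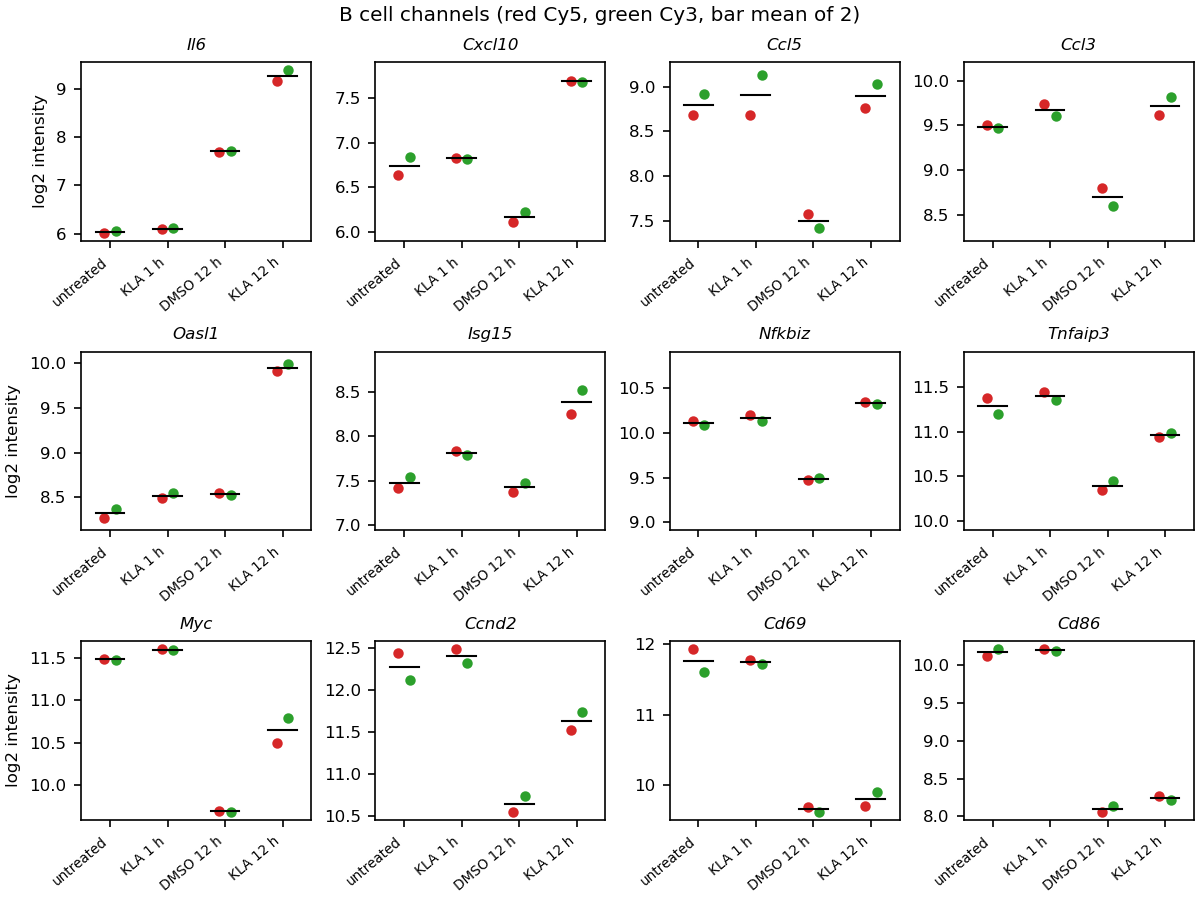
Level (log2 intensity, y axis) of named genes in the Cy5 and Cy3 channels of untreated B cells and of B cells after 1 h with KLA, 12 h with DMSO and 12 h with KLA (x axis), 1 point per channel. Il6 is highest in both KLA 12 h channels (9.16 and 9.38), while Cd86 and Cd69 are highest in cells that were not kept for 12 h.

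NF-kB itself is held in the cytoplasm by inhibitors and switches on genes that include its own inhibitors. Of 26 genes of this group tested, 7 were higher and 0 lower with KLA (26.9% higher, beside 2.81% of all genes). The median difference was 0.16. With dye as a block 11 were higher, beside 987 of all 17346 genes. Nfkbiz, a nuclear inhibitor protein needed for expression of Il6 in macrophages, was at 9.475 and 9.499 with DMSO and at 10.35 and 10.33 with KLA, and rose by 0.85 ± 0.08 or 1.80-fold (limma adjusted p = 5.56e-07). Tnfaip3, whose product A20 shuts off the pathway, went from 10.35 and 10.44 to 10.94 and 10.99 (0.57 ± 0.07, limma adjusted p = 1.29e-05). In both the groups did not overlap. Bcl2a1b, a survival gene whose probe may also read its close copies, rose by 0.63 ± 0.09 (limma adjusted p = 0.00019), and Traf1, an adaptor of TNF receptors, by 0.46 ± 0.07 (limma adjusted p = 0.000154). In untreated cells Tnfaip3 (11.375 and 11.20), Bcl2a1b (13.20 and 13.10) and Traf1 (12.41 and 12.49) stood above both 12 h groups. Untreated levels of Nfkbiz (10.14 and 10.09) lay between those of DMSO and KLA. The classical inhibitor gene Nfkbia differed by 0.20 ± 0.10 (limma adjusted p = 0.351) and Nfkb2 by 0.16 ± 0.08 (limma adjusted p = 0.358), neither past the threshold. The differences of the subunit genes Nfkb1, Rela, Relb and Rel did not pass it either. Under exchanged labels the list had 2 higher and 18 lower genes, Nfkbiz was no longer called (0.17, limma adjusted p = 0.0853), the 4 subunit genes had negative differences, and Tnfaip3 differed by -0.43, Bcl2a1b by -0.35, Traf1 by -0.83, Nfkbia by -0.52 and Nfkb2 by -1.01.

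Interferon-stimulated genes respond to type I interferon made after TRIF signalling. Of 48 tested, 9 were higher and 0 lower (18.8% higher, beside 2.81% of all genes). A positive difference was found for 41, against 8043 of all 17346 genes, and the median was 0.12. With dye as a block 14 were higher, beside 987 of all genes. Oasl1, of the oligoadenylate synthetase family, was at 8.54 and 8.52 with DMSO and at 9.91 and 9.99 with KLA. The channels of the groups lay far apart, and Oasl1 rose by 1.42 ± 0.12, 2.67-fold (limma adjusted p = 1.96e-07). Isg15, a ubiquitin-like protein, was at 7.38 and 7.47 with DMSO and at 8.25 and 8.51 with KLA, a rise of 0.96 ± 0.11 or 1.94-fold (limma adjusted p = 8.52e-06), from a probe that the array files place on chr17 of mm8. Ifit1, which binds viral RNA, was not well above background with DMSO (5.95 and 6.02), reached 6.62 and 6.71 with KLA and rose by at least 1.55-fold (0.68 ± 0.12, limma adjusted p = 0.000887). Oas2 rose by 0.59 ± 0.09 from 6.64 and 6.66 to 7.14 and 7.33 (limma adjusted p = 0.000178). Ifit3, Usp18, Mx2, Isgf3g and Ifih1 were the other genes called, with differences between 0.36 and 0.55. Irf7, a master regulator of interferon genes, was at 6.99 and 7.31 with DMSO and at 7.27 and 7.86 with KLA, where the channels overlapped (0.42 ± 0.20, limma adjusted p = 0.298; 0.00129 with dye as a block). This was the list whose called increases were most numerous with the labels exchanged, 27 higher and 3 lower, though Irf7 then differed by -0.39, Isgf3g by -0.12 and Ifit3 by 0.0433, the last no longer called.

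Upstream of Isg15 and Ifit1, chosen because they hold ISRE matches, while that of Oasl1 held 0, the RefSeq sequences of GRCm38.p6 read as follows, with the same use of capitals, at chr4:156200819-156201068 on the minus strand and at chr19:34640639-34640888 on the plus strand.
Isg15: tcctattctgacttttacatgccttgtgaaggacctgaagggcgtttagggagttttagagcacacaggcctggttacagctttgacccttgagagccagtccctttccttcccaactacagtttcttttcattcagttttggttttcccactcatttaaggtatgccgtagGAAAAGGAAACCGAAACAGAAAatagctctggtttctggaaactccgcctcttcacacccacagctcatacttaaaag
Ifit1: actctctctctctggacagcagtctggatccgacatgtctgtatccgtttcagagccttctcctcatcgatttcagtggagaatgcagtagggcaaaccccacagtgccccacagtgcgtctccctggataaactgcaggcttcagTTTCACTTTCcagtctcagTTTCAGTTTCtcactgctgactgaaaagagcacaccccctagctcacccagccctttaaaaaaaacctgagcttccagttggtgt
Isg15 held 3 overlapping ISRE matches and Ifit1 held 2. An ISRE match stood in 821 of all 27025 promoters (3.04%), in 3 of the 6 interferon-stimulated genes called higher that had an entry (50%) and in 12 of the 28 others (42.9%).

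Growth-related genes had the highest share of increases among the 15 pathway lists plotted. Of 36 genes for Myc, ribosome biogenesis, polyamines and one-carbon metabolism, 13 were higher and 0 lower (36.1% higher, beside 2.81% of all genes). Of the 36, 33 had a positive difference and the median was 0.31. With dye as a block 29 were higher and 1 lower, beside 987 and 954 of all 17346 genes. Myc, a transcription factor that drives cell growth, was at 9.70 and 9.69 with DMSO, at 10.50 and 10.79 with KLA, and at 11.48 and 11.47 without treatment. KLA-treated cells thus lay between solvent-treated and untreated cells, and the rise over DMSO was 0.95 ± 0.07, 1.93-fold (limma adjusted p = 5.01e-08). Hk2, the hexokinase that starts glycolysis in growing cells, rose by 0.87 ± 0.09 from 9.63 and 9.35 to 10.41 and 10.31 (limma adjusted p = 4.53e-06). Srm, for spermidine synthase, went from 11.18 and 11.12 to 11.82 and 11.86 (0.69 ± 0.07, limma adjusted p = 8.71e-07), below the 12.55 and 12.39 of untreated cells. Mthfd2, a mitochondrial folate enzyme, went from 11.39 and 11.13 to 11.93 and 11.84 (0.62 ± 0.13, limma adjusted p = 0.00684), and this call was lost without the Cy5 channel of KLA (limma adjusted p = 0.0743) or the Cy3 channel of DMSO (limma adjusted p = 0.117). Untreated cells stood at 12.13 and 12.18 for Mthfd2 and at 10.53 and 10.35 for Hk2. Among the others that rose over DMSO were the nucleolar genes Nol1, Nol5 and Nol5a, the mitochondrial chaperone gene Hspd1, Shmt2, and Slc7a5, an amino acid transporter. Odc1, which starts polyamine synthesis, rose as well, with a neighbouring spot that differed the same way. After an exchange of the labels 0 of the 36 were higher and 25 lower, with Myc at -0.95, Hk2 at -0.0916, Srm at -0.70, Mthfd2 at -0.30, Odc1 at -0.39, Nol1 at -0.41, Shmt2 at -0.54, Nol5 at -0.52, Nol5a at -0.42, Hspd1 at -0.0737 and Slc7a5 at -1.17.

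**Figure D4:**
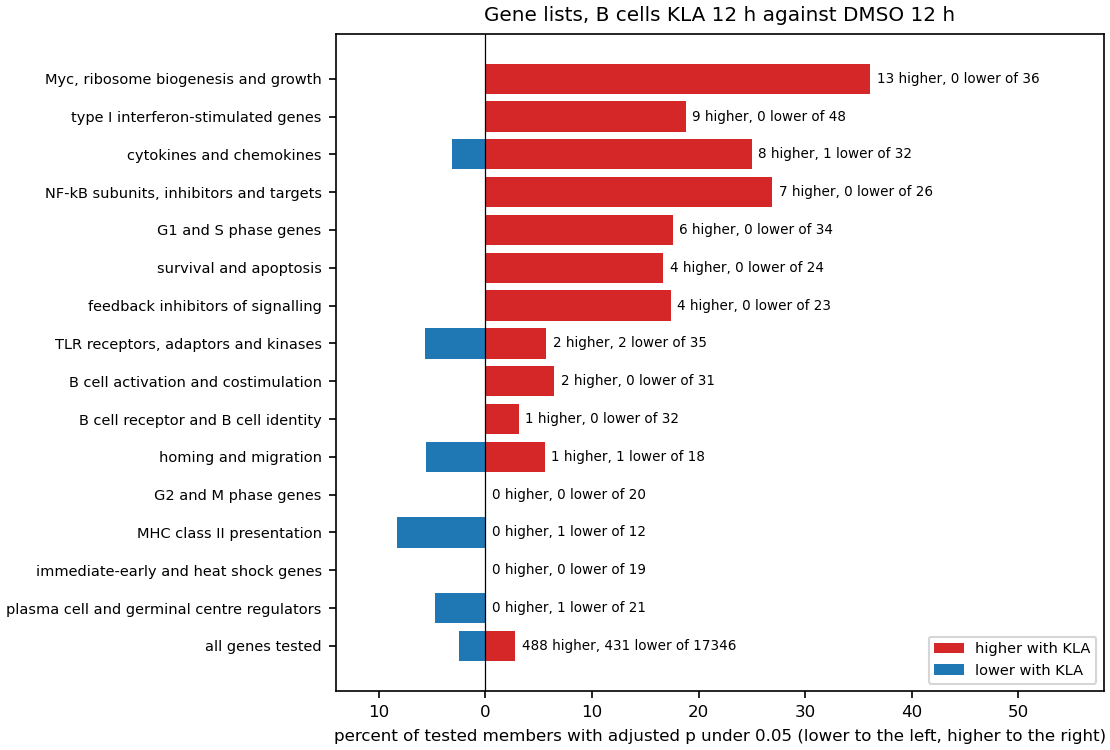
Percent of the tested genes of each list (rows) and of all genes tested that were called higher (bars to the right) or lower (bars to the left) with KLA 12 h than with DMSO 12 h in B cells, with the counts as text. The longest bar is that of Myc, ribosome biogenesis and growth (36.1% higher), beside 2.81% of all genes.

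Cell cycle genes were counted by phase. Of 34 genes of G1 and S phase 6 were higher and 0 lower (17.6% higher, beside 2.81% of all genes). With dye as a block 7 of them were higher and 3 lower. Of 20 genes of G2 and M phase limma called 0 in either direction, with or without the block, beside 5.30% of all genes. At an unadjusted p under 0.05, 0 of these 20 were higher and 1 lower. Whether the phases differ was not tested. Ccnd2, the D-type cyclin used by B cells, was at 10.55 and 10.73 with DMSO, at 11.52 and 11.73 with KLA and at 12.43 and 12.12 without treatment. It rose by 0.99 ± 0.11, 1.98-fold (limma adjusted p = 4.56e-06), and although a neighbouring spot differed the same way (0.82), the other probes of the gene gave 0.90. Tyms, for thymidylate synthase, went from 8.34 and 8.32 to 8.90 and 9.15 (0.70 ± 0.08, limma adjusted p = 1.47e-05), and Tk1 and Ccnd3 rose by smaller amounts. Cdk6 was called higher (0.64 ± 0.14, limma adjusted p = 0.0111), but its other probes gave -0.37, and the call was lost without the Cy5 channel of KLA (limma adjusted p = 0.0865) or the Cy3 channel of DMSO (limma adjusted p = 0.127). Cdkn1a, an inhibitor of the cycle, was at 7.16 and 7.24 with DMSO and at 7.53 and 7.68 with KLA (0.41 ± 0.10, limma adjusted p = 0.0183), a call lost without the Cy3 channel of KLA (limma adjusted p = 0.156) or either DMSO channel (limma adjusted p = 0.137 and 0.0592). Untreated cells stood above both 12 h groups for Cdk6 (12.41 and 11.98) and Cdkn1a (8.34 and 8.32), and below them for Tyms (8.24 and 8.26). When the labels were exchanged 4 of the G1 and S phase genes were higher and 20 lower, with Ccnd2 at -0.77, Cdk6 at -0.14, Cdkn1a at -0.90, Tk1 at -0.35 and Ccnd3 at -0.52, and of the G2 and M phase genes 1 was higher and 14 lower.

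Of 31 genes of surface activation tested 2 were higher and 0 lower (6.45% higher, beside 2.81% of all genes; 5 higher and 1 lower with dye as a block). Cd40, the receptor for T cell help, was at 10.17 and 10.15 with DMSO and at 10.53 and 10.47 with KLA, an increase of 0.34 ± 0.07 or 1.26-fold (limma adjusted p = 0.00363) that was not called without the Cy5 channel of KLA (limma adjusted p = 0.0529). Untreated cells stood at 11.47 and 11.33 for Cd40, above both 12 h groups. Cd83 was at 13.51 and 13.54 with DMSO, at 13.76 and 13.83 with KLA and at 14.98 and 14.93 without treatment (0.27 ± 0.06, limma adjusted p = 0.0164). Its call was lost without the Cy3 channel of KLA (limma adjusted p = 0.125) or either DMSO channel (limma adjusted p = 0.105 and 0.0728). Cd86, the main costimulatory ligand of activated B cells, was at 8.06 and 8.14 with DMSO, at 8.27 and 8.22 with KLA and at 10.13 and 10.21 without treatment. Cd69, an early activation marker, was at 9.69 and 9.62 with DMSO and at 9.69 and 9.90 with KLA, against 11.93 and 11.60 without treatment. Neither passed the test (0.14 ± 0.08 with limma adjusted p = 0.366 for Cd86, 0.14 ± 0.10 with 0.562 for Cd69), and untreated cells stood above both 12 h groups. Cd80 differed by 0.10 ± 0.06 (limma adjusted p = 0.521) and was not well above background in either group. On exchange of the labels 7 genes were higher and 14 lower, and Cd40 (-0.97), Cd83 (-1.21), Cd86 (-1.96), Cd69 (-1.96) and Cd80 (-0.07) turned sign.

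Of 21 regulators of plasma cell and germinal centre fate 0 were higher and 1 lower by limma (4.76% lower, beside 2.48% of all genes; 1 higher and 2 lower at an unadjusted p under 0.05, 1 and 1 with dye as a block, and 9 and 9 with the labels exchanged). Sdc1, for the plasma cell surface protein CD138, was at 11.11 and 11.10 with DMSO and at 10.70 in both channels with KLA, and fell by 0.41 ± 0.06 on the log2 scale (limma adjusted p = 0.000309), a call lost with the labels exchanged (-0.091, limma adjusted p = 0.259). Prdm1, the factor that drives plasma cell differentiation, was at 8.34 and 7.94 with DMSO and at 8.44 and 8.40 with KLA (0.28 ± 0.11). It had a limma adjusted p of 0.188, and of 0.0349 with dye as a block. Leaving out 1 channel at a time gave differences of 0.08 to 0.48 for Prdm1. The neighbouring spot that differed the same way, by 1.03, was that of Ccl3, named above among the increases. Irf4 differed by 0.16 ± 0.08 (limma adjusted p = 0.345; -0.90 with the labels exchanged), and Xbp1 and Bcl6 were not called.

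Of 32 genes of the B cell receptor and of B cell identity 1 was higher and 0 lower (3.12% higher, beside 2.81% of all genes; 1 and 3 with dye as a block, and 17 and 8 with the labels exchanged). Ms4a1, for the surface protein CD20, did not pass the test (0.10, limma adjusted p = 0.689). Pax5, the factor that keeps B cell identity, was at 12.48 and 12.46 with DMSO and at 12.19 and 12.28 with KLA (-0.24 ± 0.08, limma adjusted p = 0.119; 0.0466 with dye as a block). The gene called was Ikzf1, a lymphoid transcription factor (0.39 ± 0.11, limma adjusted p = 0.0398). Its channels were at 11.56 and 11.41 with DMSO and at 12.11 and 11.64 with KLA, and the call was lost without the Cy5 channel of KLA (limma adjusted p = 0.511), of DMSO (limma adjusted p = 0.0616) or the Cy3 channel of DMSO (limma adjusted p = 0.276). Of 12 genes of MHC class II presentation 0 were higher and 1 lower (8.33% lower, beside 2.48% of all genes). With dye as a block 3 were lower. The list had 1 positive difference and a median of -0.12. H2-Ab1, a chain of the class II molecule itself, was at 16.77 and 16.65 with DMSO and at 16.64 and 16.51 with KLA (-0.13, limma adjusted p = 0.456). H2-Oa, a chain of the inhibitor of peptide loading, was called lower (-0.21 ± 0.05, limma adjusted p = 0.019), a call lost without the Cy5 channel of KLA (limma adjusted p = 0.142) or either DMSO channel (limma adjusted p = 0.147 and 0.0563). With the labels exchanged Pax5 differed by 0.43, and 2 of the MHC class II genes were higher and 8 lower.

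The receptor complex for KLA was measured in both groups. Tlr4 was at 7.52 and 7.50 with DMSO and at 7.36 and 7.45 with KLA (-0.11 ± 0.06, limma adjusted p = 0.406), so that the receptor differed by little. Ly96 was at 10.68 and 10.57 with DMSO and at 10.68 and 10.61 with KLA (limma adjusted p = 0.963). Cd180 was at 10.62 and 10.13 with DMSO and at 11.04 and 10.30 with KLA (0.30 ± 0.20, limma adjusted p = 0.529), with the dyes further apart than the groups. Cd14, the co-receptor, was at 6.54 and 6.51 with DMSO and at 7.15 and 7.14 with KLA, an increase of 0.61 ± 0.10 or 1.53-fold (limma adjusted p = 0.000427) with a neighbouring spot that differed the same way by 0.91. Over the 35 genes of Toll-like receptors, adaptors and kinases 2 were higher and 2 lower (5.71% each, beside 2.81% and 2.48% of all genes). With dye as a block 2 were higher and 4 lower. Tlr3, for the receptor of double-stranded RNA, was called lower by at least 1.5-fold (-0.73 ± 0.08, limma adjusted p = 2.8e-06), with a neighbouring spot at -0.58. Another probe of Tlr3 gave 0.0479 but was not well above background in both channels of either group. Ticam2, not well above background in either group, was called higher (0.25, limma adjusted p = 0.0104) and Irak4 lower (-0.22, limma adjusted p = 0.0338). Ticam2 lost its call without the Cy5 channel of KLA (limma adjusted p = 0.0881) or of DMSO (limma adjusted p = 0.133), and Irak4 without the Cy5 channel of KLA (limma adjusted p = 0.346) or either DMSO channel (limma adjusted p = 0.142 and 0.136). Under exchanged labels Tlr4 differed by 0.23, Tlr3 by 0.0694 and Irak4 by 0.12, Ticam2 was no longer called (0.12), and 11 genes of the list were higher and 11 lower.

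With dye as a block 8 of 24 survival genes were higher and 1 lower. Without the block 4 were higher and 0 lower (16.7% higher, beside 2.81% of all genes). Beside Bcl2a1b these included Bbc3, which encodes the death protein PUMA (0.31, limma adjusted p = 0.00295), and Bcl2 (0.30, limma adjusted p = 0.0361). Members that protect and members that kill were thus both among them. The call of Bcl2 was lost without any 1 of the 4 channels (limma adjusted p = 0.105 to 0.176). Of 18 genes of homing 1 was higher and 1 lower (5.56% each, beside 2.81% and 2.48% of all genes). With dye as a block 1 was higher and 3 lower. Itgb7, an integrin for homing to the gut, was at 13.95 and 14.09 with DMSO and at 13.44 and 13.54 with KLA, and fell by 0.53 ± 0.10 on the log2 scale (limma adjusted p = 0.00147). Itgal, a chain of LFA-1, was called higher (0.21, limma adjusted p = 0.0336), but not when any 1 channel was left out (limma adjusted p = 0.125 to 0.142). After an exchange of the labels Bbc3 differed by -0.42 and Itgb7 by 0.69, with 6 survival genes higher and 10 lower and 4 homing genes higher and 8 lower.

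Genes that dampen signalling were called in 4 of 23 cases, all higher (17.4%, beside 2.81% of all genes). With dye as a block 4 were higher and 1 lower. The median over the list was -0.02 on the log2 scale. Atf3, a stress-induced repressor of TLR4 target genes, was at 8.24 and 8.28 with DMSO, at 9.34 in both channels with KLA and at 9.97 and 9.83 without treatment. It rose by 1.08 ± 0.06, 2.11-fold (limma adjusted p = 3.93e-10), with a neighbouring spot that differed the same way by 0.61 and with -0.81 when labels were exchanged. Nfil3, a transcription factor of the same bZIP family, went from 8.54 and 8.36 to 9.18 and 9.20 (0.74 ± 0.09, limma adjusted p = 2.29e-05). Tnfaip3 and Il10 were the others, and the exchange of labels left 5 genes of the list higher and 12 lower. Of 19 immediate-early and heat shock genes limma called 0, beside 5.30% of all genes. At an unadjusted p under 0.05, 3 were higher and 2 lower. With dye as a block 2 were higher, and with the labels exchanged 3 were higher and 14 lower.

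The largest increases outside these lists were led by Pnrc2, a cofactor in decay of messenger RNA, which was at 7.55 and 7.65 with DMSO, at 13.16 and 13.11 with KLA and at 12.76 and 12.88 without treatment (5.54 ± 0.07, 46.4-fold, limma adjusted p = 1.6e-19). It was thus the DMSO array that stood apart from the other B cell arrays for this gene. Stk35, a kinase gene, showed the same pattern, with 5.95 and 5.88 with DMSO, 8.42 and 8.24 with KLA and 8.50 and 8.35 without treatment, and another of its probes differed by 0.00699. Slc7a3, a transporter of arginine and lysine, was at 8.95 in both DMSO channels and at 10.64 and 10.40 with KLA, above the 8.43 and 8.25 of untreated cells (1.57 ± 0.08, 2.97-fold, limma adjusted p = 1.09e-10). Batf, a partner of AP-1 factors in activated lymphocytes, was at 10.42 and 10.52 with DMSO and at 11.48 and 11.53 with KLA, above 9.32 and 9.41 in untreated cells (1.04 ± 0.08, 2.05-fold, limma adjusted p = 9.73e-08). For Il6, Slc7a3 and Batf the KLA channels were above those of all other B cell groups. Mfsd2, a lipid transporter of the major facilitator superfamily, went from 7.16 and 7.21 to 8.36 and 8.40 (1.20 ± 0.08, 2.29-fold, limma adjusted p = 1.04e-08). Plekhn1 rose by 1.14 ± 0.07 (limma adjusted p = 1.36e-09), with another probe at -0.0227. Kcnj14, Zik1 and Ptprn2, the other genes among the 15 largest increases, had a neighbouring spot that differed the same way. When the labels were exchanged Stk35 differed by -0.32 and Plekhn1 by -0.41.

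The 10 largest decreases by the rule for named genes were bounds, because KLA-treated cells were not well above background. The lowest difference of all genes tested was -5.62, of a gene that did not meet that rule. Kcna6, a potassium channel gene, was at 10.00 and 9.48 with DMSO and at 6.09 in both channels with KLA (-3.65 ± 0.11, at least 12.3-fold lower, limma adjusted p = 5.56e-14). A neighbouring spot was at -2.55. Another probe of Kcna6 gave 0.12 but was not well above background in both channels of either group. Nxph2, for a neuronal secreted protein, was at 8.71 and 8.51 with DMSO and at 5.93 and 5.83 with KLA, at least 5.93-fold lower, with a neighbouring spot at -3.31. The others were 2210023G05Rik, 4930597G03Rik, Foxc2, 2700046A07Rik, Fat2, 5730510P18Rik, Esrrb and D430015B01Rik, with bounds from 3.83-fold to 5.95-fold lower. Of the 10, only Fat2 and Esrrb lacked a neighbouring spot that differed the same way. Another probe of Esrrb gave -0.05 but was likewise not well above background in both channels of either group. On exchange of the labels Kcna6 differed by 0.12, Nxph2 by 0.0112, Foxc2 by 0.12, 5730510P18Rik by 0.0421, Esrrb by 0.11 and D430015B01Rik by 0.0491, and 2210023G05Rik (-0.10), 4930597G03Rik (-0.12) and Fat2 (-0.0273) were no longer called.

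Markers of the cell types that the preparation could hold were compared next, since in bulk RNA fewer cells of a type and less RNA per cell cannot be told apart. All 10 B cell markers were well above background in all 4 channels and 0 were called by limma (0 higher and 3 lower at an unadjusted p under 0.05), with a summed linear intensity of 338000 to 349000 with KLA and 357000 to 368000 with DMSO. T cell markers summed to 6150 to 6510 with KLA and 6860 to 6970 with DMSO, with 8 of 12 detected and 1 (Cd2) lower (8.33%). NK cell markers summed to 693 to 697 and 755 to 768, with 3 of 7 detected and 1 (Klrd1) lower (14.3%). The difference of Klrd1 turned to 0.96 with the labels exchanged. Over all genes 2.48% were lower, and each of these shares rests on 1 gene. Of 13 macrophage and monocyte markers 8 were detected, and their sum was 96500 to 109000 with KLA and 103000 to 115000 with DMSO. Cd14 was the 1 macrophage marker called (7.69% of the list, beside 2.81% of all genes higher). While 8 of the 13 were well above background in all 4 channels, 4, among them Itgam, Mrc1 and Fcgr1, were so in none. Erythroid markers summed to 3690 to 4630 with KLA and to 5150 to 5310 with DMSO, with Hba-a1 lower (-0.31 ± 0.09, limma adjusted p = 0.0423). Plasma cell markers summed to 5600 to 6210 and 5880 to 6420, with 1 of 5 (Sdc1) lower. For these and for the erythroid markers 1 gene is 20% of the list, beside 2.48% of all genes lower. Neutrophil markers (1 of 10 detected, 664 to 796 with KLA and 649 to 688 with DMSO) and dendritic cell markers (4 of 6 detected, 606 to 627 and 609 to 621) had 0 called by limma, and 1 and 0 genes at an unadjusted p under 0.05. Whether the T cell, NK cell and erythroid messages played a part in the differences given above was not tested.

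More genes were called with KLA in macrophages. In EPM 9350 genes differed between KLA 12 h and DMSO 12 h (53.9%; 19.6% higher and 34.3% lower), and in BMDM 11271 (65.0%; 28.6% higher and 36.4% lower). The difference between the B cell change and the macrophage change, tested as an interaction in the same fit, was past the threshold for 7820 genes against EPM (45.1%) and for 9980 against BMDM (57.6%). Il6 rose by 3.45 in EPM and 5.19 in BMDM on the log2 scale, so that the B cell change was smaller by -1.88 and -3.62. Cxcl10 rose by 7.90 and 6.64 in the macrophages, and B cells stood at -6.38 and -5.11 relative to them. Tnf (-5.32 and -1.49) and Cd86 (-4.72 and -3.48) also changed less in B cells, and Myc was the gene of this set that changed more, by 1.00 against EPM and 0.90 against BMDM, where it differed by -0.05 and 0.05 between treatments. The limma adjusted p of these 10 interactions was at most 6.1e-07. The 361 genes over 4-fold higher in EPM had a median difference of 3.05 there and of 0.0175 in B cells. Of these, 26 were higher (7.20%) and 4 lower (1.11%) in B cells. For BMDM the 363 genes had medians of 2.76 and 0.0139, with 28 higher (7.71%) and 4 lower (1.1%) in B cells. Over all genes these shares were 2.81% and 2.48%. Genes well above background in macrophages alone were also tested, and how many of these genes were detected in B cells was not counted. Conversely, of the 488 genes higher in B cells 150 (30.7%) were higher and 113 lower in EPM, and 149 (30.5%) were higher and 192 lower in BMDM.

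**Figure D5:**
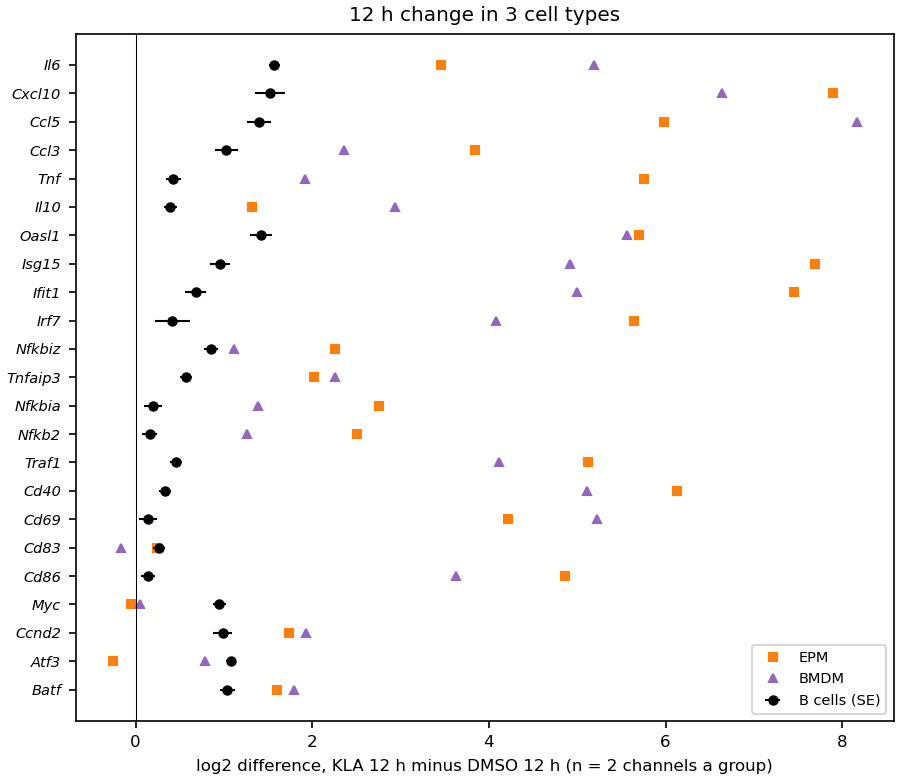
Log2 difference between KLA 12 h and DMSO 12 h (x axis) of named genes (rows) in B cells (circles, with the standard error of the fit as bars), EPM (squares) and BMDM (triangles), n = 2 channels a group. Il6, Cxcl10, Tnf and Cd86 lie further left in B cells than in either macrophage, and Myc further right.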

How the data were processed

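Messenger RNA of 24 samples was measured on 12 Agilent 2-colour arrays, of which the 4 channels of B cells at 12 h were compared. Per the labels, 250 ng of total RNA was amplified with Agilent's Quick-Amp kit. The authors deposited scanner output of Agilent Feature Extraction 9.5.3.1 per channel, as mean, background and processed intensity, and a table of normalized linear intensity whose method is not given in the sources used here. Flags for background, saturation and outliers in the deposited files were used as given, and probe positions are on mm8.

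In R 4.3.3 with limma 3.58.1, mean intensities were background-corrected (normexp, offset 50), control spots left out, and the channels normalized by loess within and Aquantile between arrays. Outlier spots were dropped, spots of a probe averaged, and each gene represented by its probe of highest mean. A gene was kept if at least 1 group had it well above background in each dye, and kept genes were fitted with 1 coefficient per group over all 24 channels (12 residual degrees of freedom), and p-values were adjusted by Benjamini-Hochberg over all genes. A fold is a lower bound where the dimmer group was not well above background in either channel. The code was tested on simulated data.

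Each dye was 1 replicate. The Cy5 minus Cy3 differences of the 66 pairs of arrays correlated at 0.27 to 0.63 (0.54 for KLA and DMSO), so that the dye pairs channels and was used as a block in an alternative fit. The labels call the channels biological replicates but do not say whether they came from separate animals, so the p-values measure the spread between these samples.

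Genes named were the 15 largest increases and 10 largest decreases that were called without overlap and well above background in the brighter group, a fixed set of genes, and in each list up to 4 called genes per direction; others in the text were chosen after their values were seen, and some genes are not reported here. The members and the lists were chosen with earlier results of these data known. Alternatives were another offset, signal, normalization, filter, probe summary, threshold and set of samples, the authors' table, exchanged labels, array means and the omission of each channel.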

Additional observations from a re-analysis of the deposited data

Results flagged for a closer look

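The change with KLA at 12 h differed between B cells and macrophages, by an interaction term of the same limma fit, for 7820 genes against EPM and for 9980 against BMDM. Il6 had a difference of B cells minus EPM of -1.88 and of B cells minus BMDM of -3.62 on the log2 scale. For Cxcl10 these were -6.38 and -5.11, for Tnf -5.32 and -1.49, and for Cd86 -4.72 and -3.48. Myc changed more in B cells, by 1.00 against EPM and by 0.90 against BMDM. The macrophage arrays, like those of B cells, held 1 condition each, so that array and condition cannot be told apart for any of these differences.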

How the results depend on the processing

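With the replicate block (dye as a term) 987 genes were higher and 954 lower in KLA 12 h than in DMSO 12 h, and all 488 and 431 genes of the reported fit were among them. With the B cell arrays alone 279 and 255 genes were called, with the 4 channels alone 168 and 173, with genes well above background in all 4 channels 323 and 196 (14 lower over 2-fold), and at an adjusted p under 0.01 286 and 247. Leaving out 1 channel at a time gave 321 to 460 genes higher and 263 to 379 lower. An offset of 16 in place of 50 gave 53 genes higher and 104 lower over 2-fold, and the processed signal of the scanner software 214 and 282. Without genes whose neighbouring spot differed the same way, an alternative chosen after seeing the data, 257 genes were lower and 4 of these over 2-fold. In the authors' table, as it is labelled, 4042 genes were higher and 3540 lower, 579 and 236 over 2-fold. With the labels of KLA 1 h and DMSO 12 h exchanged, 4302 were higher and 4231 lower, 531 and 262 over 2-fold, and 258 of the 488 and 95 of the 431 genes kept their call while 142 and 102 were called the opposite way. With array means as samples and the 2 control arrays of a cell type as replicates, limma called 0 genes higher, 0 of them over 2-fold (182 at an unadjusted p under 0.05), and 1 lower, the same 1 over 2-fold (50 at an unadjusted p under 0.05), and the changes differed from EPM for 689 genes and from BMDM for 1486.

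The 71 genes chosen by the stated rule were followed through the alternatives that gave them a value. Of these, the log2 differences that turned sign with the labels exchanged were 5730510P18Rik 0.0421, Atf3 -0.81, Bbc3 -0.42, Bcl2a1b -0.35, Ccl5 -0.0103, Ccnd2 -0.77, Cd40 -0.97, Cd69 -1.96, Cd80 -0.0700, Cd83 -1.21, Cd86 -1.96, Cdk6 -0.14, Cdkn1a -0.90, D430015B01Rik 0.0491, Esrrb 0.11, Foxc2 0.12, Hk2 -0.0916, Il10 -0.000132, Irak4 0.12, Irf4 -0.90, Irf7 -0.39, Itgb7 0.69, Kcna6 0.12, Mthfd2 -0.30, Myc -0.95, Nfkb2 -1.01, Nfkbia -0.52, Nxph2 0.0112, Pax5 0.43, Plekhn1 -0.41, Srm -0.70, Stk35 -0.32, Tlr3 0.0694, Tlr4 0.23, Tnf -0.82, Tnfaip3 -0.43 and Traf1 -0.83. Those that turned in the authors' table were Atf3 -0.65, Bbc3 -0.40, Bcl2a1b -0.27, Ccnd2 -0.75, Cd69 -1.92, Cd80 -0.19, Cd83 -1.34, Cd86 -1.92, Cdk6 -0.12, D430015B01Rik 0.00147, Esrrb 0.0345, Foxc2 0.0563, Hk2 -0.0562, Irak4 0.20, Irf4 -0.97, Irf7 -0.24, Itgb7 0.65, Mthfd2 -0.33, Myc -0.995, Nfkb2 -0.93, Nfkbia -0.71, Pax5 0.26, Plekhn1 -0.39, Srm -0.63, Stk35 -0.30, Ticam2 -0.0472, Tnfaip3 -0.37 and Traf1 -0.78. With array means as samples, where untreated cells are part of the control, they were Cd40 -0.28, Cd69 -0.92, Cd83 -0.45, Cd86 -0.89, Cdkn1a -0.16, Irf4 -0.39, Irf7 -0.00176, Itgb7 0.0756, Nfkb2 -0.28, Pax5 0.0227, Tlr4 0.057, Tnf -0.10 and Traf1 -0.17. The mean of all probes turned Cdk6 -0.0319, omission of the normalization between arrays Cd80 -0.0145, and the processed signal Ly96 -0.0297 and Ms4a1 -0.0266. Leaving out 1 channel at a time gave -0.0338 to 0.0736 for Ly96 and -0.0706 to 0.66 for Cd180. Under the other alternatives none of these genes turned sign where it had a value, and the causes were not tested. The authors' values covered 63 of the 71 genes, and the filter on all 4 channels covered 52. Il6, Tnf, Il10, Cd40, Cdkn1a, Csf2 and Kcna6 had no value from the authors, so whether they turned there was not tested. The threshold of 0.01 and the omission of genes by their neighbouring spot were not applied to single genes. The replicate block changed the call of Irf7, Pax5 and Prdm1 and of no other of the 71 genes. With 2 channels of 1 array in each group, the standard errors cover the spread between the channels and not that between arrays, and signals near background give bounds.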

Other observations

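Among the largest increases with KLA were genes for the supply of amino acids, which led to a list of 49 genes of the response to amino acid starvation, chosen after the leading genes were seen and therefore given with no test. Of these, 29 were called higher and 0 lower, 45 had a positive difference and the median was 0.305 (log2), while of all 17346 genes tested 2.81% were higher, 2.48% lower and 8043 positive, with a median of -0.0094. With dye as a block 36 of the 49 were higher. They included Slc7a3 (1.57), Atf3 (1.08, with a neighbouring spot that differed the same way), Slc6a9 (0.80) and Psat1 (0.77). Cth, an enzyme of cysteine synthesis, was at 8.73 and 8.79 with KLA and at 7.83 and 7.80 with DMSO. Chac1, which degrades glutathione, was at 12.23 and 12.09 with KLA and at 11.48 and 11.20 with DMSO. Asns, for asparagine synthetase, was at 12.32 and 12.18 against 11.68 and 11.38. Trib3 rose by 0.71 and Cebpb by 0.60, while Atf4 itself differed by -0.05 and Ddit3 by 0.27, neither past the threshold, although Ddit3 passed it with dye as a block (limma adjusted p = 0.0397). Untreated cells stood above both 12 h groups for Psat1 (12.50 and 12.28), Trib3 (13.03 and 12.97) and Atf3 (9.97 and 9.83). The same held for the called genes Slc7a1 (12.19 and 12.15, against 10.77 and 10.88 with KLA), Mthfd2, Eif4ebp1, Gars, Slc7a5, Xpot and Lars. It also held for Gpt2, Cebpg, Sesn2, Aldh18a1, Eprs, Nars, Iars and Cars, while for Shmt2 the untreated and KLA channels overlapped. Untreated cells stood below KLA for Slc7a3, Slc6a9, Cth (6.77 and 6.92), Chac1 (11.34 and 10.97), Asns (11.32 and 11.06), Cebpb, Bcat1, Nupr1, Pycr1 and Atf5. Of the 49 genes 6 also stand in the other lists. With the labels exchanged 11 were higher and 30 lower (median -0.475), with Psat1 at -0.88, Trib3 at -0.44, Atf3 at -0.81 and Ddit3 at -0.30, and in the macrophages 23 were higher and 14 lower in EPM and 18 and 24 in BMDM.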
